A study of Mus musculus with 8 samples.

Results

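Excitation-contraction coupling links the electrical signal of a muscle fiber to the release of calcium from its sarcoplasmic reticulum. At the triad, where a transverse tubule of the surface membrane lies between 2 cisternae of the reticulum, the voltage-sensing calcium channel of the tubule (pore subunit *Cacna1s*, β1 subunit *Cacnb1*) opens the calcium release channel (*Ryr1*), with the adaptor *Stac3* and the junction protein *Jph1* holding the pair together. The pump *Atp2a1* (SERCA1) returns calcium to the store, the small membrane proteins *Sln* (sarcolipin) and *Pln* (phospholamban) restrain the pump, and the calsequestrins *Casq1* and *Casq2* bind calcium inside the store. In fast fibers SERCA1 and calsequestrin 1 prevail, whereas SERCA2 (*Atp2a2*) and calsequestrin 2 are typical of slow fibers and heart. The data below describe these 10 genes, chosen by name for their known function, among the 27041 rows of a table of RNA-seq read counts.

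The libraries came from 9-week-old male C57BL/6J mice, from skeletal muscle per the sample labels and from gastrocnemius per the study's methods. The comparison asks which transcripts depend on LSD1 (gene *Kdm1a*), a histone lysine demethylase, in muscle fibers. Ctrl mice carried LSD1 L2/L2, an allele with loxP sites on both sides of exon 1, and no Cre. LSD1skm-/- mice carried the same alleles together with HSA-Cre, a recombinase driven by the human skeletal α-actin promoter in myofibers, so that endothelial cells, fibroblasts, nerve sheath and fat in the muscle kept an intact gene. Counts were analysed for 4 Ctrl and 2 LSD1skm-/- libraries, with 30654828 to 41278769 counted reads each. LSD1skm-/- replicates 3 and 4 were not analysed here. As no label states that each library is a separate mouse, p-values measure the spread between these libraries.

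*Kdm1a* was at 22.9, 21.9, 28.0 and 3.65 CPM (reads per one-millionth of the library's TMM-scaled total) in Ctrl replicates 1 to 4 and at 2.95 and 3.47 CPM in LSD1skm-/- replicates 1 and 2. The library labelled Ctrl replicate 4 thus went against its label on the targeted gene. Labels were left as deposited, and comparisons were made by the labels (4 against 2) and without that library (3 against 2). Over the 11364 genes with a mean count above 50, the quasi-likelihood test of edgeR, adjusted by the Benjamini-Hochberg method, called 0 genes by the labels (0% at an adjusted p under 0.05, 8.9% at an unadjusted p under 0.05). The 3 against 2 comparison called 612 genes (5.39%), 496 of them higher in LSD1skm-/- muscle, and 20.2% had an unadjusted p under 0.05. Genes of myofiber identity such as *Ckm* and *Acta1* summed to between 97290 and 112100 CPM in all 6 libraries.

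All 10 genes were detected in every library, over a wide range of levels (plot of levels per kilobase). Per length, *Atp2a1* was the most abundant in Ctrl muscle at 8331 ± 775 CPM per kilobase of exon (SD, n = 4), followed by *Casq1* at 1743 ± 150 (SD, n = 4), a ratio of 4.78. *Ryr1* at 149.6 ± 34.4 and *Cacna1s* at 128.3 ± 27.2 CPM per kilobase came next, and their ranges over the 6 libraries overlapped. *Stac3* at 97.8 ± 2.95 and *Jph1* at 86.8 ± 14.4 CPM per kilobase likewise could not be ordered. *Cacnb1* stood at 39.4 ± 1.76 and *Casq2* at 10.7 ± 3.14 CPM per kilobase, each apart from its neighbours. *Sln* (1.34 ± 1.07) and *Pln* (0.496 ± 0.119) were lowest, with overlapping ranges. The mean counts of these 2 small inhibitors of the pump, 50.17 and 48.17, were near the limit of 50 set for testing. Taking the longest transcript in place of all exons put *Ryr1* at 212.8, *Stac3* at 138.9, *Cacna1s* at 134.4 and *Cacnb1* at 52.5 CPM per kilobase in Ctrl, so that *Stac3* and *Cacna1s* changed places in the order.

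**Figure D1:**
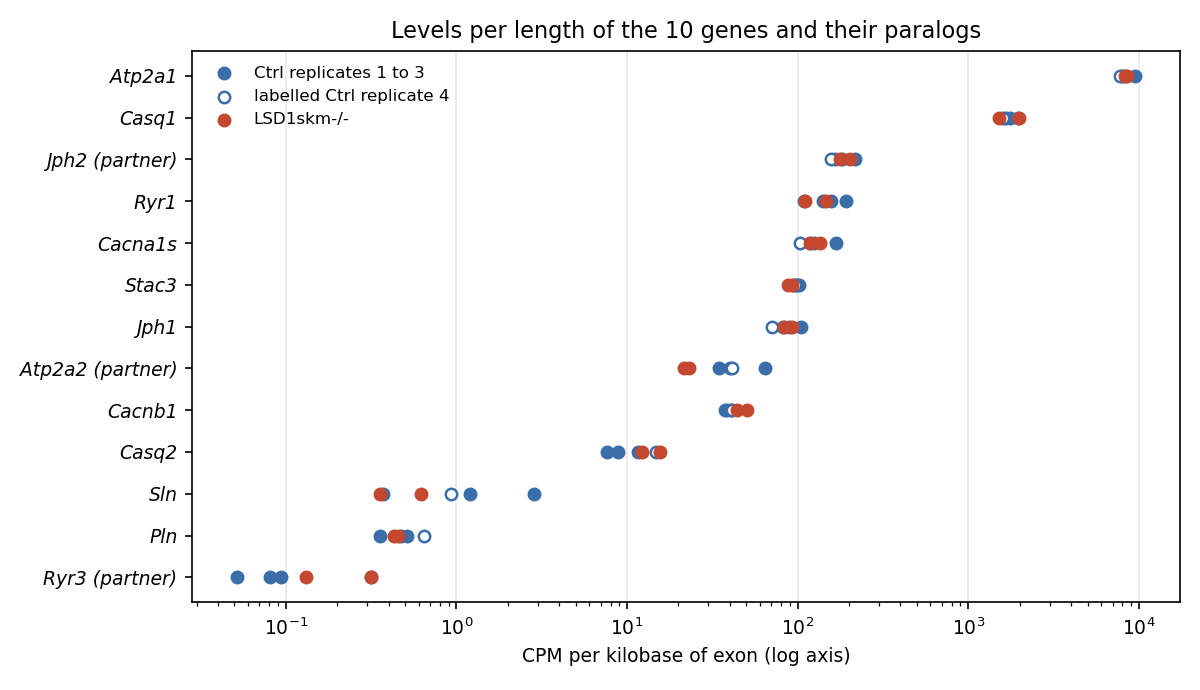
Level of each gene in each library in CPM per kilobase of exon (log axis), ordered by the Ctrl mean, with the paralogs *Jph2*, *Atp2a2* and *Ryr3* for reference, where one point is one library. *Atp2a1* and *Casq1* lie above all others, *Sln* and *Pln* lie lowest of the 10 genes, and *Atp2a2* is the one gene shown whose LSD1skm-/- points lie below all Ctrl points by a clear gap.

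Among the triad genes, the voltage sensor's pore and the release channel spread widely within Ctrl muscle. *Ryr1* (GRCm38 chromosome 7, 29003344 to 29125179, minus strand, 106 exons in its longest transcript) was at 3068, 3421, 4193 and 2387 CPM in Ctrl replicates 1 to 4 and at 3201 and 2406 CPM in LSD1skm-/- replicates 1 and 2. Both LSD1skm-/- libraries lay within the Ctrl range, and the library labelled Ctrl replicate 4 was the lowest of all. The log2 fold change (LSD1skm-/- minus Ctrl) was -0.22 ± 0.23 (SE, 95% interval -0.75 to 0.31, edgeR adjusted p = 0.762) and -0.34 ± 0.18 in the 3 against 2 comparison (-0.77 to 0.08, adjusted p = 0.349). *Ryr1* is the longest of the 10 transcripts. Over the 296 tested genes with a transcript of at least 10000 bases, the median deviation from the gene's own mean was 0.16 (log2) in Ctrl replicate 3 and -0.27 in LSD1skm-/- replicate 2, the libraries with the highest and one of the 2 lowest *Ryr1* values, and -0.05 in the library labelled Ctrl replicate 4. The part of transcript length in the *Ryr1* spread was not tested.

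*Cacna1s* (chromosome 1, 136052750 to 136119822, plus strand) was at 769.8, 817.0, 1094 and 680.1 CPM in Ctrl and at 884.4 and 773.2 CPM in LSD1skm-/- muscle. The groups overlapped, with the highest and the lowest value both in Ctrl, and the log2 fold change was -0.02 ± 0.19 (-0.46 to 0.43, edgeR adjusted p = 0.978) by the labels and -0.11 ± 0.17 (-0.51 to 0.29, adjusted p = 0.775) in the 3 against 2 comparison. Its sign turned with the scaling between libraries. *Jph1* (chromosome 1, 16964560 to 17097889, minus strand), which ties the reticulum to the tubule membrane, was at 410.6, 447.4, 524.8 and 353.3 CPM in Ctrl and at 463.7 and 417.4 CPM in LSD1skm-/- muscle. Here too the LSD1skm-/- libraries lay inside the Ctrl range, with a log2 fold change of 0.02 ± 0.16 (-0.36 to 0.40) by the labels and -0.06 ± 0.13 (-0.38 to 0.25) in the 3 against 2 comparison.

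*Cacnb1*, the β1 subunit that carries the pore to the tubule membrane, gave the smallest unadjusted p of the 9 tested genes by the labels. The gene (chromosome 11, 98001508 to 98023034, minus strand) was at 173.5, 169.7, 184.1 and 186.1 CPM in Ctrl replicates 1 to 4 and at 200 and 229.9 CPM in LSD1skm-/- replicates 1 and 2. Both LSD1skm-/- libraries were above every Ctrl library. The log2 fold change was 0.27 ± 0.10 (0.03 to 0.51, unadjusted p = 0.0337) by the labels and 0.29 ± 0.10 (0.05 to 0.54, unadjusted p = 0.0258) in the 3 against 2 comparison. Neither passed adjustment over all genes (edgeR adjusted p = 0.557 and 0.177), and over 15 alternatives, among which the unadjusted p passed in 10, the adjusted p ranged from 0.12 to 0.947. LSD1skm-/- replicate 2 carried much of the difference, since leaving it out gave 0.165.

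*Stac3* (chromosome 10, 127501686 to 127508823, plus strand), the adaptor that voltage-driven release requires, varied least of the triad genes within Ctrl. It was at 257.4, 252.0, 240.6 and 244.6 CPM in Ctrl and at 224.2 and 234.3 CPM in LSD1skm-/- muscle, so that both LSD1skm-/- libraries were below every Ctrl library. The difference was small, at -0.12 ± 0.09 on the log2 scale in either comparison (-0.34 to 0.10 in both; edgeR adjusted p = 0.691 and 0.521). Within libraries, *Cacna1s* gave 25.1, 23.9, 26.1 and 28.5 reads per 100 *Ryr1* reads in Ctrl and 27.6 and 32.1 in LSD1skm-/- muscle. Over the 6 libraries the SD of this log2 ratio was 0.152, against SDs of log2 CPM of 0.311 for *Ryr1* and 0.233 for *Cacna1s*. Its group difference was 0.21 (exact two-sided permutation test, p = 0.2) by the labels and 0.25 (exact p = 0.1, with no overlap) in the 3 against 2 comparison. The longest transcript has 15358 bases for *Ryr1* and 6251 for *Cacna1s*. The median deviation of long transcripts was 0.11 and -0.27 in LSD1skm-/- replicates 1 and 2. The part of transcript length in this ratio was not tested. *Cacnb1* per 100 *Cacna1s* reads was 22.5, 20.8, 16.8 and 27.4 in Ctrl and 22.6 and 29.7 in LSD1skm-/- muscle, which overlapped by the labels (difference 0.27, exact p = 0.333) and did not in the 3 against 2 comparison (difference 0.38, exact p = 0.2). The smallest p these exact tests can give is 0.0667 for 4 against 2 and 0.1 for 3 against 2, so no ratio could pass 0.05.

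**Figure D2:**
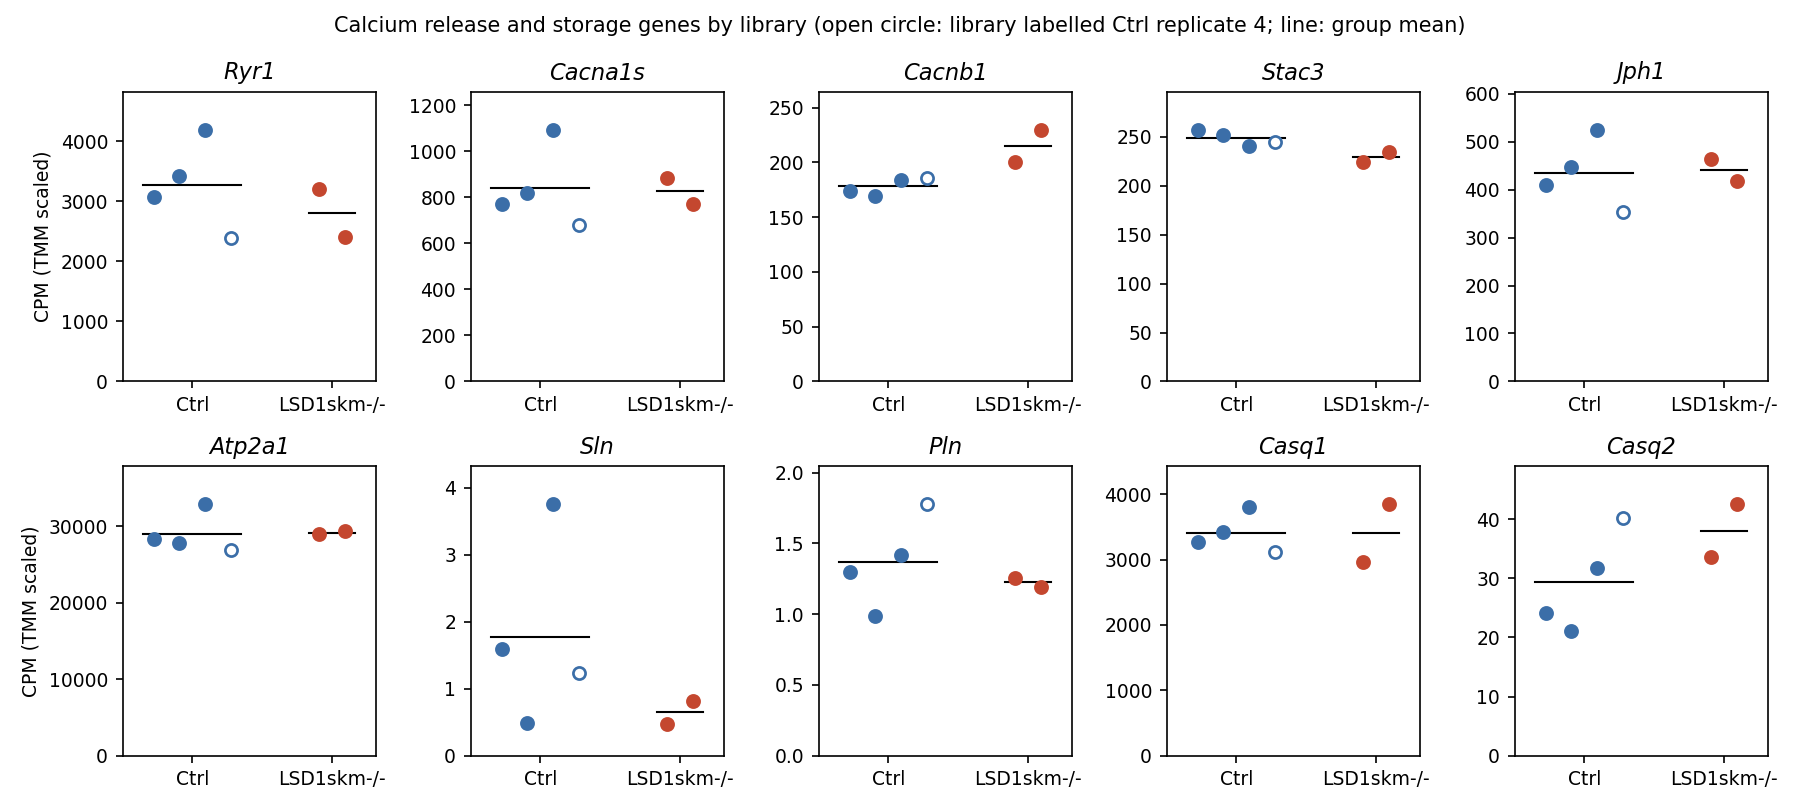
CPM of each of the 10 genes in each library (linear axes from 0), with Ctrl in blue, the library labelled Ctrl replicate 4 as an open circle, LSD1skm-/- in red and lines at the group means. Both LSD1skm-/- points lie above all Ctrl points for *Cacnb1* and below them for *Stac3*, and for the other 8 genes the groups overlap.

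The 250 bases before the upstream of the 2 RefSeq starts (GRCm38.p6) of *Cacnb1* are printed because it was the one gene of the 10 with an unadjusted p under 0.05 by the labels (chr11:98022628-98022877, minus strand). The window before its other start holds 1 E-box, at 27 bases before the start. No motif of the 4 searched lies in the upstream window, and its GC content of 73.2% compares with a median of 52.4% over 32851 promoter windows of this length.
Cacnb1: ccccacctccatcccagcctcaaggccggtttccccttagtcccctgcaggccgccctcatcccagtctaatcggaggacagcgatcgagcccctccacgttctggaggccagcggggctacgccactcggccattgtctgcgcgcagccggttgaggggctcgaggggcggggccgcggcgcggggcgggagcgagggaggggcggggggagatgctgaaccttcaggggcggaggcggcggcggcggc
The searched motifs were the E-box (CANNTG, bound by myogenic factors such as MYOD1), the MEF2 motif, the NRF1 motif (GCGCNNGCGC) and the TATA box (TATAAA or TATATA), on both strands, and in the windows printed no motif overlapped another. They occur in 66.2%, 2.92%, 4.98% and 15.6% of all windows, respectively. Windows were found for 7 of the 10 genes, 8 windows in all, and none of the 8 holds the NRF1 motif. *Sln*, *Stac3* and *Jph1* had no entry.

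For the calcium pump, the groups overlapped for the fast isoform, whereas the slow isoform was lower in both LSD1skm-/- libraries than in all Ctrl libraries. *Atp2a1* (chromosome 7, 126445858 to 126463108, minus strand) was at 28310, 27770, 32910 and 26880 CPM in Ctrl and at 28940 and 29420 CPM in LSD1skm-/- muscle. The LSD1skm-/- libraries lay inside the Ctrl range, and the log2 fold change was 0.01 ± 0.12 (-0.28 to 0.30, edgeR adjusted p = 0.982) by the labels and -0.02 ± 0.13 (-0.32 to 0.28, adjusted p = 0.944) in the 3 against 2 comparison. Exons of *Rabep2* on the opposite strand cover 21.9% of its exons, and whether reads were counted by strand is not stated in the sources used here.

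*Atp2a2* (SERCA2), its slow-fiber paralog, was at 245.3, 210.3, 392.4 and 250 CPM in Ctrl and at 130.4 and 141.2 CPM in LSD1skm-/- muscle, below every Ctrl library. The log2 fold change was -1.02 ± 0.25 (unadjusted p = 0.00378, edgeR adjusted p = 0.557) by the labels and -1.06 ± 0.26 (adjusted p = 0.0625) in the 3 against 2 comparison, while DESeq2 gave adjusted p values of 0.0107 by the labels and 4.04e-04 in the 3 against 2 comparison. Per 100 *Atp2a1* reads there were 0.866, 0.757, 1.19 and 0.93 *Atp2a2* reads in Ctrl and 0.45 and 0.48 in LSD1skm-/- muscle (plot of read ratios). Of the 12 gene pairs compared, this was the one pair whose groups did not overlap by the labels, with a log2 difference of -0.99 (exact two-sided permutation test, p = 0.0667, the smallest possible, and 0.571 after Benjamini-Hochberg adjustment over the 12 pairs). The difference was -0.99 without the library labelled Ctrl replicate 4 as well (exact p = 0.1, adjusted 0.3).

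*Atp2a2* is also a member of the slow-twitch list, and the other genes of that list had values in the same direction. All 10 genes of the list were lower in LSD1skm-/- muscle by the labels, with a median log2 fold change of -1.48 (median of all tested genes -0.008), and 9 had an unadjusted p under 0.05, beside 8.9% of all tested genes. In the 3 against 2 comparison the median was -1.41, 9 had an unadjusted p under 0.05 (20.2% of all tested genes) and 2 passed adjustment (5.39%). The median was -0.956 without LSD1skm-/- replicate 1 and -2.031 without LSD1skm-/- replicate 2. The list's summed level was 1214 to 2395 CPM over the Ctrl libraries, 1389 in the library labelled Ctrl replicate 4, and 506.4 and 903.8 CPM in LSD1skm-/- replicates 1 and 2. *Myh7*, the slow myosin heavy chain, was at 246.6, 241.4, 508.3 and 221.0 CPM in Ctrl and at 35.2 and 86.3 CPM in LSD1skm-/- muscle, with a log2 fold change of -2.32 ± 0.49 by the labels (edgeR adjusted p = 0.557) and -2.45 ± 0.48 in the 3 against 2 comparison (adjusted p = 0.0313). The 10 fast-twitch genes (7 lower, 3 higher) had a median of -0.11 by the labels and -0.13 in the 3 against 2 comparison. Their summed level was 153200 to 168400 CPM in Ctrl replicates 1 to 3 and 137200 CPM in the library labelled Ctrl replicate 4. It was 131900 and 139600 CPM in LSD1skm-/- muscle, below Ctrl replicates 1 to 3. *Myh4*, the most abundant of them, was at 52770, 51210, 56930 and 39070 CPM in Ctrl and at 39700 and 35160 CPM in LSD1skm-/- muscle. Its log2 fold change was -0.42 ± 0.17 (edgeR adjusted p = 0.557) by the labels and -0.52 ± 0.13 (adjusted p = 0.0662) in the 3 against 2 comparison. In whole muscle, fewer slow fibers and less slow-fiber RNA per fiber cannot be told apart.

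**Figure D3:**
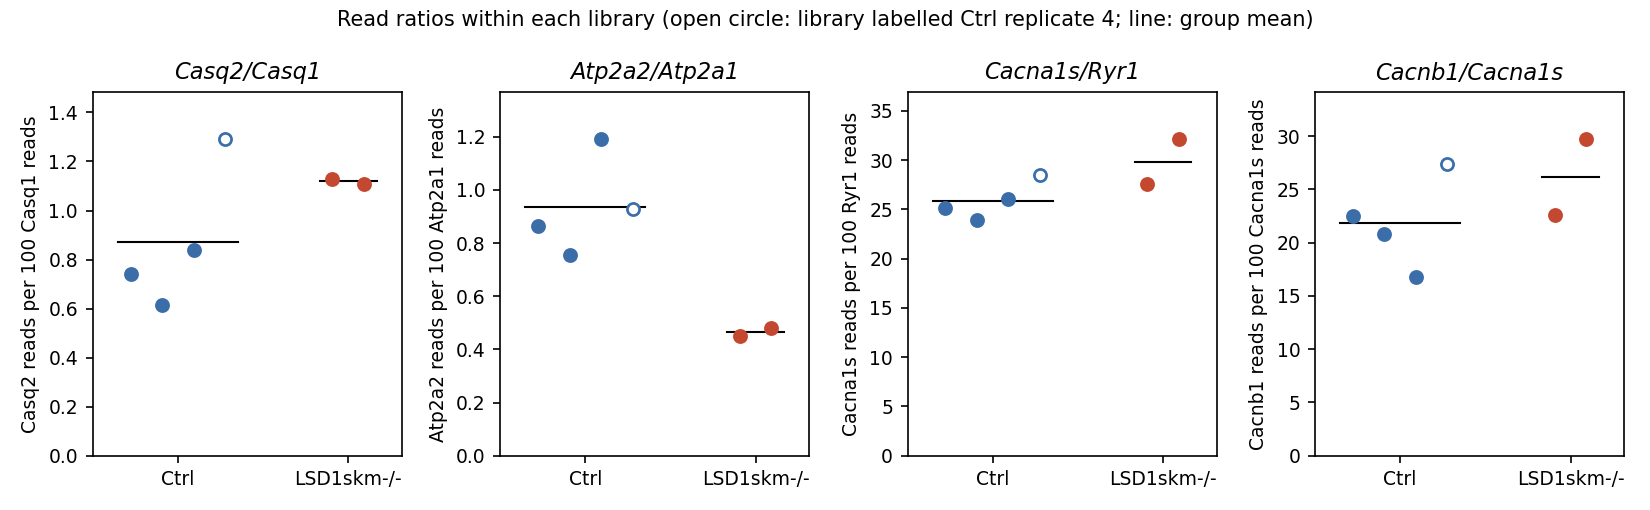
Reads of one gene per 100 reads of its partner in each library, for 4 of the 12 pairs (linear axes from 0), with the library labelled Ctrl replicate 4 as an open circle and lines at the group means. *Atp2a2* per *Atp2a1* is lower in both LSD1skm-/- libraries than in all 4 Ctrl libraries, and *Casq2* per *Casq1* is higher in LSD1skm-/- than in Ctrl replicates 1 to 3 but not than in the library labelled Ctrl replicate 4.

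The 2 small inhibitors of the pump were measured from few reads. *Sln* (chromosome 9, 53850164 to 53854560, plus strand) had 55, 16, 130 and 54 reads in Ctrl replicates 1 to 4 and 15 and 31 reads in LSD1skm-/- replicates 1 and 2, or 1.59, 0.492, 3.76, 1.23, 0.471 and 0.822 CPM. Ctrl replicate 2 lay between the LSD1skm-/- libraries, so the groups overlapped. The log2 fold change was -1.43 ± 0.75 (-3.18 to 0.31, edgeR adjusted p = 0.574) by the labels and -1.57 ± 0.77 (-3.37 to 0.22, adjusted p = 0.309) in the 3 against 2 comparison, and -0.763 without Ctrl replicate 3, the library with the most *Sln* reads. With a mean count of 50.17 it was just inside the limit of 50 for testing. *Pln* (chromosome 10, 53337667 to 53345987, plus strand), at a mean count of 48.17, was just outside it and received no test. Its reads numbered 45, 32, 49 and 78 in Ctrl and 40 and 45 in LSD1skm-/- muscle, within the Ctrl range. With a limit of 10 on the mean count, edgeR gave it a log2 fold change of -0.16 ± 0.29 (adjusted p = 0.875) by the labels. Exons on the opposite strand (*Cep85l* and *Gm47644*) cover 64.7% of the *Pln* exons, so its reads may not all be its own. *Sln* per 100 *Pln* reads ranged from 50.8 to 264 in Ctrl and was 38.3 and 69.2 in LSD1skm-/- muscle (exact p = 0.333 by the labels, and log2 difference -1.19, exact p = 0.3, in the 3 against 2 comparison). *Mrln* (myoregulin), another inhibitor of SERCA1 in skeletal muscle, is named here after its values were seen. It was at 62.2, 53.4, 50.3 and 44.0 CPM in Ctrl and at 36.6 and 42.2 CPM in LSD1skm-/- muscle, below every Ctrl library. The log2 fold change of *Mrln* was -0.41 ± 0.15 (edgeR adjusted p = 0.557) by the labels and -0.49 ± 0.13 (adjusted p = 0.0819) in the 3 against 2 comparison. DESeq2 gave *Mrln* adjusted p values of 0.36 by the labels and 0.0152 in the 3 against 2 comparison. *Strit1*, also in the list of pump regulators below and not one of these inhibitors, was lower too. It had 24, 24, 37 and 18 reads in Ctrl and 0 and 6 in LSD1skm-/- muscle. Its mean count of 18.17 was below the limit for testing.

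The calsequestrins, which buffer calcium inside the store, differed widely in level. *Casq1* (chromosome 1, 172209894 to 172219868, minus strand) was at 3263, 3420, 3799 and 3121 CPM in Ctrl and at 2965 and 3849 CPM in LSD1skm-/- muscle. The 2 LSD1skm-/- libraries were the lowest and the highest of the 6, and the log2 fold change was 0.00 ± 0.15 (-0.33 to 0.34, edgeR adjusted p = 0.995) by the labels and -0.04 ± 0.14 (-0.37 to 0.30, adjusted p = 0.918) in the 3 against 2 comparison. *Casq2* (chromosome 3, 102086415 to 102146514, plus strand) was at 24.1, 21.0, 31.8 and 40.3 CPM in Ctrl replicates 1 to 4 and at 33.6 and 42.6 CPM in LSD1skm-/- replicates 1 and 2. The library labelled Ctrl replicate 4 lay between the LSD1skm-/- libraries, and the other 3 Ctrl libraries lay below both.

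For *Casq2* the log2 fold change was 0.38 ± 0.25 (-0.21 to 0.96, edgeR adjusted p = 0.644) by the labels. In the 3 against 2 comparison it was 0.57 ± 0.19 (0.13 to 1.01, unadjusted p = 0.0182, adjusted p = 0.146). A fit of replicates 1 and 2 of each group with the replicate number as a block gave 0.752 (edgeR adjusted p = 0.0142). The same 4 libraries without the block gave 0.758 (adjusted p = 0.0433). No label ties same-numbered libraries. Over all tested genes the blocked fit called 727 and the unblocked fit 504, beside 0 by the labels. Those 4 libraries leave out Ctrl replicate 3 and the library labelled Ctrl replicate 4, the 2 Ctrl libraries with the most *Casq2*. Over 15 alternatives the fold change ranged from 0.196, without LSD1skm-/- replicate 2, to 0.758. *Casq2* per 100 *Casq1* reads was 0.74, 0.615, 0.838 and 1.29 in Ctrl and 1.13 and 1.11 in LSD1skm-/- muscle, a log2 difference of 0.42 (exact p = 0.333) by the labels and 0.63 (exact p = 0.1, adjusted 0.3) without the library labelled Ctrl replicate 4. *Casq2* and *Atp2a2*, both typical of slow fibers and heart, thus lay on opposite sides of 0. The 6 of 8 heart marker genes found in the table, which leave out *Nppa* and *Nppb*, summed to 6.76 to 14.3 CPM over the Ctrl libraries and to 8.27 and 10.7 CPM in LSD1skm-/- muscle.

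The 250 bases before the RefSeq starts of the calsequestrins are printed because *Casq2* stood at 0.438 to 0.92 per 100 of *Casq1* per length over the 6 libraries. Both hold 2 E-boxes, at 195 and 67 bases before the start in *Casq1* (chr1:172219896-172220145, minus strand) and at 200 and 52 bases before it in *Casq2* (chr3:102086165-102086414, plus strand). *Casq2* also has a MEF2 motif at 69 bases before the start, the sole one in the 8 windows. Capitals mark the motifs.
Casq1: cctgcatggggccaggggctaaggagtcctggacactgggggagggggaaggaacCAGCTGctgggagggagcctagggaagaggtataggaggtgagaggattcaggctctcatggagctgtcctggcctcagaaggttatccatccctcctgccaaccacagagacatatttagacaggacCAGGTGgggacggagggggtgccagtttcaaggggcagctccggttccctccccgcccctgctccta
Casq2: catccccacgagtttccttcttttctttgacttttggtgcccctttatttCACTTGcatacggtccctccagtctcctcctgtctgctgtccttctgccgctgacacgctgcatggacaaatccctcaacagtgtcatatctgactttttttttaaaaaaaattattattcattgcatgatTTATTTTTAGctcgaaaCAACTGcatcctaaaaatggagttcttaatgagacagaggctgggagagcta

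Of the 9 tested genes, 0 had an adjusted p under 0.05 in either comparison, beside 0% and 5.39% of all tested genes. An unadjusted p under 0.05 was reached by 1 gene by the labels (*Cacnb1*), beside 8.9% of all tested genes, and by 2 genes in the 3 against 2 comparison (*Cacnb1* and *Casq2*), beside 20.2%. Groups did not overlap for *Cacnb1* and *Stac3* by the labels, 2 of 9 beside 17.8% of all tested genes, and for 3 of 9 in the 3 against 2 comparison beside 37.7%. The median log2 fold change over the 9 genes was 0.00 by the labels and -0.06 in the 3 against 2 comparison. The intervals bound how large a change could have been missed: that of *Atp2a1* ran from -0.28 to 0.30, whereas that of *Sln* spanned -3.18 to 0.31 (plot of fold changes).

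**Figure D4:**
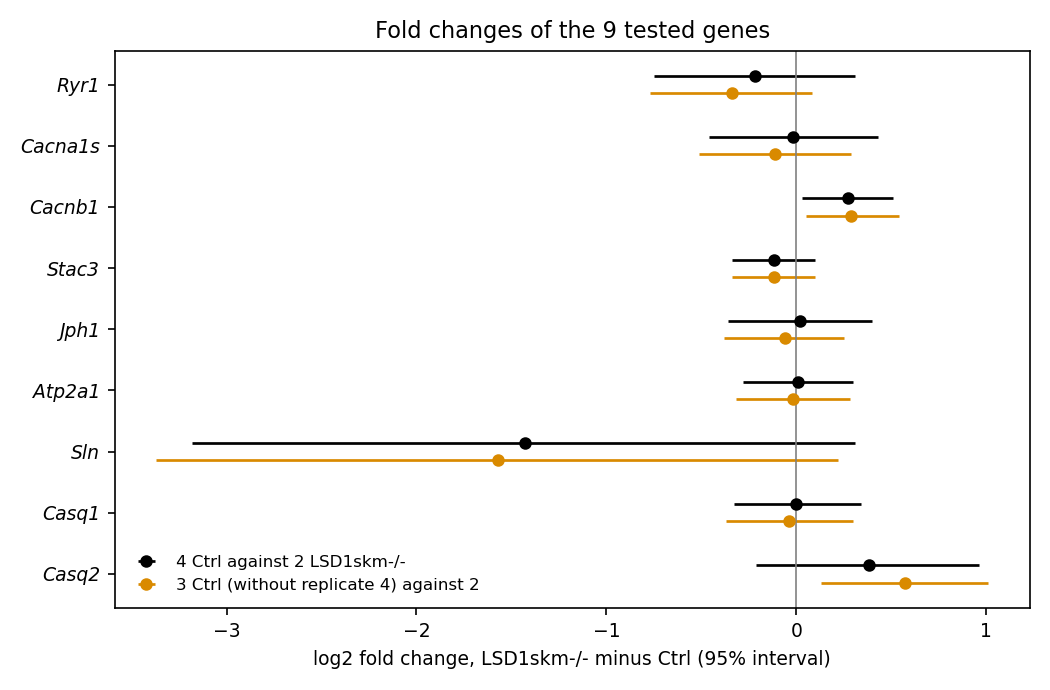
Log2 fold change of the 9 tested genes with its 95% interval, by the labels (black) and without the library labelled Ctrl replicate 4 (orange). The interval leaves out 0 for *Cacnb1* in both comparisons and for *Casq2* in the second, before adjustment for the number of genes tested, and *Sln* has the widest interval.

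Beyond the 10 genes, 83 other calcium-handling genes in 6 lists were examined, 74 of which were tested. By the labels their median log2 fold change was 0.00, and edgeR gave 3 higher and 5 lower at an unadjusted p under 0.05, 10.8% of the 74 beside 8.9% of all tested genes (5.02% higher and 3.88% lower). After adjustment 0 passed in edgeR, and 1, *Atp2a2*, passed in DESeq2 (1.35% of the 74, beside 0.405% of all genes in its fit). In the 3 against 2 comparison edgeR gave 6 higher and 14 lower at an unadjusted p under 0.05, 27.0% of the 74 beside 20.2% of all tested genes. Over all tested genes 12.5% were higher and 7.72% lower at that threshold. After adjustment 4 passed in edgeR, which is 5.41% of the 74 beside 5.39% of all tested genes and thus at the background share. They were *S100a1*, *Rcn2* and *Slc8b1*, which were higher (4.36% of all tested genes), and *Cacng1*, which was lower (1.02%). DESeq2 passed 12 of the 74 in that comparison (16.2%, beside 9.26% of all genes in its fit), 5 higher and 7 lower, with *Atp2a2*, *Mrln* and *Ryr3* among them.

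The triad list (26 of 28 tested, median 0.04) held the one gene that was lower and passed in edgeR. *Cacng1*, the γ subunit of the same voltage-gated channel as *Cacna1s* and *Cacnb1*, was at 226.3, 224.7, 281.8 and 142.0 CPM in Ctrl and at 121.9 and 130.5 CPM in LSD1skm-/- muscle. Both LSD1skm-/- libraries were below every Ctrl library, with the library labelled Ctrl replicate 4 nearest to them. Its log2 fold change was -0.79 ± 0.25 (edgeR adjusted p = 0.557) by the labels and -0.95 ± 0.13 (adjusted p = 0.00928) in the 3 against 2 comparison. *S100a1*, a calcium-binding protein that acts on the release channel, was at 90.8, 75.7, 68.5 and 106.3 CPM in Ctrl and at 116.6 and 121.7 CPM in LSD1skm-/- muscle, above every Ctrl library. The values were 0.48 ± 0.17 (adjusted p = 0.557) and 0.61 ± 0.13 (adjusted p = 0.0436). *Ryr3*, the second release channel of skeletal muscle, had 53, 58, 34 and 264 reads in Ctrl and 192 and 94 in LSD1skm-/- muscle, with the most in the library labelled Ctrl replicate 4. Its log2 fold change was 0.70 ± 0.70 by the labels and 1.57 ± 0.40 (edgeR adjusted p = 0.075) in the 3 against 2 comparison, and it stood at 0.253 or fewer reads per 100 *Ryr1* reads in every library. *Jph2*, the paralog of *Jph1*, was at 706.5, 919.8, 774.2 and 669.1 CPM in Ctrl and at 757.0 and 861.7 CPM in LSD1skm-/- muscle (0.08 ± 0.15 and 0.02 ± 0.14).

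In the list of pump regulators and luminal proteins (11 of 12 tested, median 0.02), *Rcn2*, a calcium-binding protein of the secretory pathway, was at 27.7, 31.7, 28.8 and 42.1 CPM in Ctrl and at 41.4 and 51.0 CPM in LSD1skm-/- muscle. The library labelled Ctrl replicate 4 lay between the LSD1skm-/- libraries and the other Ctrl libraries below both. Its log2 fold change was 0.50 ± 0.18 (edgeR adjusted p = 0.557) by the labels and 0.65 ± 0.12 (adjusted p = 0.0273) in the 3 against 2 comparison. *Atp2a2*, described above, was the lowest of this list. Among genes of store-operated entry and IP3 receptors (7 of 10 tested, median -0.04), *Stim1*, the calcium sensor of the store that opens surface channels when it empties, had the highest fold change by the labels and was at 208.2, 222.7, 229.6 and 220.1 CPM in Ctrl and at 251.3 and 250.2 CPM in LSD1skm-/- muscle. Both LSD1skm-/- libraries were above every Ctrl library, with a log2 fold change of 0.19 ± 0.09 (edgeR adjusted p = 0.569) by the labels and 0.19 ± 0.10 (adjusted p = 0.333) in the 3 against 2 comparison. *Itpr3*, an IP3 receptor, was the lowest of this list at -0.62 ± 0.21 (adjusted p = 0.557) and -0.67 ± 0.21 (adjusted p = 0.122).

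In the mitochondrial list (8 of 9 tested, median 0.06), *Slc8b1*, the sodium-calcium exchanger that lets calcium out of mitochondria, was at 5.28, 5.99, 4.80 and 13.8 CPM in Ctrl and at 16.1 and 16.1 CPM in LSD1skm-/- muscle. Both LSD1skm-/- libraries were above every Ctrl library, the library labelled Ctrl replicate 4 being closest to them. The log2 fold change was 1.10 ± 0.40 (edgeR adjusted p = 0.557) by the labels and 1.59 ± 0.13 (adjusted p = 0.00154) in the 3 against 2 comparison. *Vdac1*, an outer membrane channel, had the lowest value at -0.14 ± 0.16 and -0.22 ± 0.13.

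The list of cytosolic buffers and plasma membrane extrusion (6 of 7 tested) had a median of -0.17 (-0.331 without LSD1skm-/- replicate 1), between *Slc8a1*, the sodium-calcium exchanger of the surface membrane (-0.68 ± 0.28, edgeR adjusted p = 0.557), and *Atp2b3*, a plasma membrane calcium pump (0.23 ± 0.18, adjusted p = 0.676). In the 3 against 2 comparison they were at -0.80 ± 0.25 (adjusted p = 0.123) and 0.27 ± 0.18 (adjusted p = 0.47). The calcium-dependent kinases and calcineurin genes (16 of 17 tested) had a median of -0.19 by the labels and -0.25 in the 3 against 2 comparison. By the labels 0 of the 16 had an unadjusted p under 0.05, beside 8.9% of all tested genes. In the 3 against 2 comparison 6 were lower and 2 higher at that threshold, beside 7.72% and 12.5% of all tested genes. After adjustment 0 of these genes passed in edgeR in either comparison. Their ends were *Myoz2*, a calcineurin-binding protein of the Z-disc typical of slow fibers (-0.53 ± 0.24 and -0.60 ± 0.24), and *Camk2d* (0.29 ± 0.14 and 0.39 ± 0.11).

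**Figure D5:**
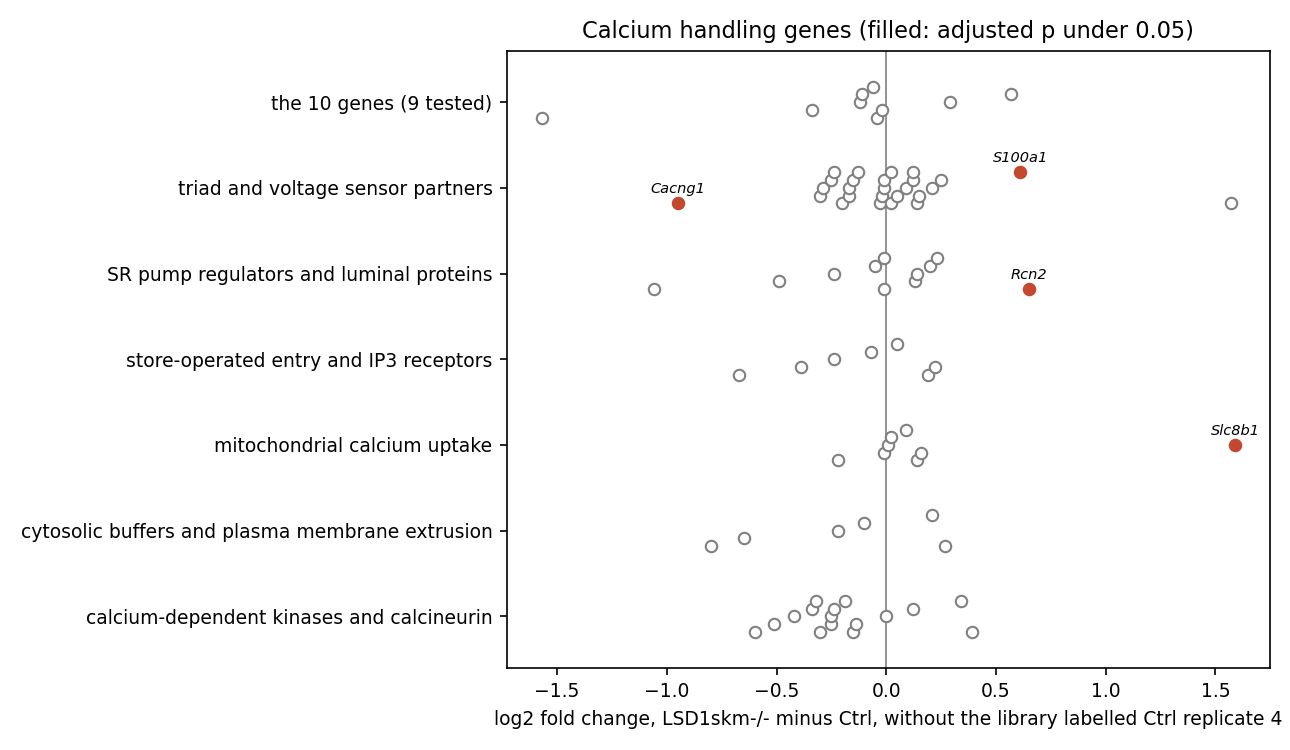
Log2 fold change of each tested gene of the 10 genes and of the 6 further calcium lists for 3 Ctrl against 2 LSD1skm-/- libraries, the library labelled Ctrl replicate 4 being left out (one circle per gene, vertical offsets within a list only separate the circles). The 4 filled genes had an edgeR adjusted p under 0.05, *Cacng1* lower and *S100a1*, *Rcn2* and *Slc8b1* higher in LSD1skm-/- muscle, and 0 of the 9 tested genes in the top row is filled.

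Markers of other cell types of the muscle were also compared, and by the labels 0 of them passed adjustment in edgeR, as did 0 of all 11364 tested genes. The 6 tested of 7 adipocyte genes had a median log2 fold change of -4.23 (-3.84 in the 3 against 2 comparison), with a summed level of 171.4 to 490.2 CPM in Ctrl against 165.8 and 177.0 CPM in LSD1skm-/- muscle. *Fabp4* made up most of each sum, at 165.3 CPM in Ctrl replicate 3 and 162.9 and 168.3 CPM in LSD1skm-/- muscle. *Adipoq* was at 12.8, 9.68, 0.781 and 19.5 CPM in Ctrl and at 0.126 and 0.557 CPM in LSD1skm-/- muscle. *Plin1* and *Cidec* were likewise low in Ctrl replicate 3, so the median was mostly carried by Ctrl replicates 1, 2 and 4. The 6 fibroblast genes had a median of 0.36, and their sums of 428.8 to 697.4 CPM in Ctrl and 606.1 and 715.6 CPM in LSD1skm-/- muscle overlapped. In the 3 against 2 comparison the fibroblast median was 0.52, with sums of 428.8 to 474.5 CPM in Ctrl replicates 1 to 3. There 2 of the 6 passed adjustment as higher, beside 4.36% of all tested genes. The 5 blood genes had a median of 0.67, with sums of 28.1 to 52.1 CPM in Ctrl and 63.95 and 65.7 CPM in LSD1skm-/- muscle. In the 3 against 2 comparison the blood median was 0.83, and 2 of the 5 passed adjustment as higher, beside 4.36% of all tested genes. By the labels and in the 3 against 2 comparison, the medians were -0.30 and -0.24 for 6 endothelial genes and -0.38 and -0.07 for the 5 tested of 6 smooth muscle genes. They were -0.39 and -0.26 for the 4 tested of 5 Schwann genes and 0.28 and 0.36 for the 4 tested of 6 immune genes. Of these 4 lists, 0 genes passed adjustment in either comparison, beside 0% and 5.39% of all tested genes. No listed marker found in the table was at 0 in all 6 libraries. Their part in the values of *Cacnb1*, *Casq2* and *Rcn2*, which cells other than myofibers can express, was not tested.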

How the data were processed

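The 10 genes and every list were chosen with earlier results of these data known. The authors made libraries with a stranded poly(A) kit, sequenced single-end reads of 50 bases, mapped them to mm10 and kept uniquely aligned reads. The paper's methods credit htseq-count with mapping and HOMER with quantification. The aligner and the strand setting of the counting are not given in the sources used here, and the submitters' processing notes list bcl2fastq 2.20.0.422. The deposited table holds raw counts, whole numbers per gene symbol, without coordinates. The labels describe 8 libraries, 6 of which have counts. All pairs of libraries differed by more than sampling noise.

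The 11364 of 27041 rows whose mean count exceeded 50 were tested with edgeR 4.0.16 (TMM, quasi-likelihood test, group as the only term, Benjamini-Hochberg adjustment over all tested genes) in R 4.3.3. The fold limits of 1.3 and 0.77 were used in an alternative. DESeq2 1.42.0 was an alternative too. Standard errors and 95% intervals come from the fold change and the F statistic. Ratios used log2 counts with 0.5 added and exact two-sided permutation tests over 12 pairs. Lengths, positions and overlaps came from the GENCODE vM21 annotation of GRCm38, and promoters from RefSeq. The planned comparison of 4 against 4 became 4 against 2. Among the genes outside the 10, those with an adjusted p under 0.05, the lowest and highest of each calcium list, the partners in ratios, and genes of other lists that moved with one of the 10 are named. *Mrln*, *Strit1*, *Myh4* and the adipocyte genes were named after their values were seen. Fewer reads mean more counting error: *Sln* and *Pln* rest on 15 to 130 reads per library. The fit of replicates 1 and 2 without a block was chosen after seeing the data, as was the summary of long transcripts. One gene was left out of the lists and is not reported here. The looser limits for *Pln*, DESeq2 over the calcium lists and alternatives for further named genes were also added after seeing the data. The code was tested on simulated counts.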

Additional observations from a re-analysis of the deposited data

Results flagged for a closer look

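In a group of 4 libraries, a value was singled out where its gap to the nearest other library took an unusually large share of the group's range (Dixon's test at the 95% level). Of 39 measures examined, 3 met this, and chance alone gives about 1 in 20. For *Kdm1a* log2 CPM in Ctrl the share was 0.879, from the library labelled Ctrl replicate 4. For *Myh7* log2 CPM in Ctrl it was 0.869, from Ctrl replicate 3, at 508.3 CPM against 221.0 to 246.6 CPM in the other Ctrl libraries. For the *Casq1* to *Atp2a1* ratio in Ctrl it was 0.89, from Ctrl replicate 2, which had 12.3 *Casq1* reads per 100 *Atp2a1* reads against 11.5 to 11.6 in the other Ctrl libraries. The LSD1skm-/- libraries, at 10.2 and 13.1, lay outside that range on both sides.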

How the results depend on the processing

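The number of genes with an adjusted p under 0.05 depended on the libraries and the test. It was 0 by the labels with edgeR under every scaling tried and with a mean count above 10, 46 with DESeq2's Wald test, 149 with no filter beyond 1 count, and 0 to 612 when 1 library at a time was left out (612 without the library labelled Ctrl replicate 4, 6 without Ctrl replicate 3 and 0 otherwise). DESeq2 without the library labelled Ctrl replicate 4 called 1037. At an unadjusted p under 0.05 there were 1011, and 717 with fold limits as well. The fit with the replicate number as a block, on replicates 1 and 2 of each group, called 727, and the same 4 libraries unblocked called 504. Deviations of same-numbered libraries correlated at -0.233 (replicate 1) and -0.0334 (replicate 2). With 2 LSD1skm-/- libraries their deviations mirror each other, so this check says little, and no label ties same-numbered libraries, so the numbers were taken as names.

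Of the 9 tested genes, *Casq2* alone crossed the adjusted threshold under any alternative run, as given with its result. *Pln* could be fitted under 2 looser limits, at -0.16 (mean count above 10) and -0.18 (no filter beyond 1 count), and passed under neither. For 17 other genes that were run (*Kdm1a*, *Myh7*, *Mrln*, the partners in ratios and the calcium genes described), 37 alternative values in 11 genes passed the adjusted threshold where the comparison by the labels did not, 214 kept their side and 4 changed sign. The following values turned sign, and the cause was not tested. *Cacna1s* was 0.027 with library size scaling, 0.065 with the replicate block, 0.067 unblocked and -0.125 to 0.133 with 1 library left out. *Jph1* was -0.071 in DESeq2 without the library labelled Ctrl replicate 4 and -0.063 to 0.126 with 1 library left out. *Atp2a1* was -0.003 without the filter, -0.030 in DESeq2 without that library and -0.022 to 0.078 with 1 left out. *Casq1* was -0.005 with DESeq2 size factors, -0.002 with upper-quartile scaling, -0.005 with the Wald test, -0.011 without the filter, -0.042 in DESeq2 without that library and -0.198 to 0.174 with 1 left out. *Jph2* was -0.003 in the unblocked fit and -0.020 to 0.173 with 1 left out. With 1 left out, *Ryr3* (0.70 by the labels) was -0.069 to 1.571, the lowest without LSD1skm-/- replicate 1, and *Atp2b3* was -0.059 to 0.475. With 1 left out, the log2 ratio differences ran from -0.27 to 0.026 for *Pln*/*Atp2a1*, -0.267 to 0.012 for *Stac3*/*Cacna1s*, -0.119 to 0.219 for *Jph2*/*Jph1*, -0.197 to 0.156 for *Casq1*/*Atp2a1* and -0.194 to 0.595 for *Casq1*/*Ryr1*. List medians that left their spread, beside those given with their results, were -0.016 for the triad list in DESeq2 without the library labelled Ctrl replicate 4, 0.058 (library size scaling) and 0.087 (without LSD1skm-/- replicate 2) for pump regulators, -0.1 and 0.016 (without Ctrl replicates 2 and 3) for store-operated entry, and 0.109 (unblocked) for heart markers. A fit with 1 LSD1skm-/- library assumes that it varies like the Ctrl libraries. With 2 LSD1skm-/- libraries the precision is set by their number more than by depth. *Sln* and *Pln* also carry more counting error, and *Sln* varied between libraries as well, from 16 to 130 reads within Ctrl.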

Other observations

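For the 3 genes of the 10 with the largest spread over the 6 libraries, the tested genes with the most similar profile are given as a description, with Pearson's r of log2 CPM over 6 libraries that share their depth and composition. For *Sln* (SD of log2 CPM 1.08) these were *Gm32219* (r = 0.99), *Cyfip1* (0.983) and *Aspscr1* (0.979). For *Casq2* (SD 0.402) they were *Tysnd1* (0.997), *Cdc45* (0.995) and *Iqcb1* (0.991). For *Ryr1* (SD 0.311) they were *Lonrf1* (0.998), *Golga2* (0.996) and *Pcyt1a* (0.996). None of the 9 is a calcium-handling gene of the lists used here. The 6 further calcium lists hold 74 of the 11364 tested genes, so this absence says little. Each r is among the highest of all tested genes over 6 libraries, so values near 1 carry little weight.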
